A study of Mus musculus with 2 samples.

Results

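*Taf4* and 9 of its partner genes in the general transcription factor TFIID were followed through single-cell RNA-seq of mouse enteroids, intestinal epithelium grown as mini-guts from crypts. The 10 genes were chosen by name (*Taf4*, *Taf4b*, *Taf12*, *Taf1*, *Taf5*, *Taf6*, *Taf8*, *Taf9*, *Taf10* and *Tbp*), and all 10 were listed in both count tables, among 16665 genes listed in either one. The enteroids came from ileal crypts of 4-month-old C57Bl6/129sv mice, and live sorted cells were captured with a 3′ chemistry that counts molecules by unique identifiers (UMIs). There were 2 libraries with 1 per condition, so no test between conditions was possible. The control library carries the label WT with ethanol, whereas the methods of the study describe Taf4lox/lox enteroids given 4-hydroxytamoxifen (4-OHT). The other library is labelled KO and received 1 µM 4-OHT over 3 days. In the methods it is Taf4lox/lox::VilCreERT2, in which a Villin-driven Cre, switched on by 4-OHT, recombines the floxed *Taf4* allele in intestinal epithelial cells. The number of mice behind each library is not given in the sources used here, and genotype, treatment and library cannot be told apart.

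TFIID is the multi-subunit complex that recognises the core promoter and helps to place RNA polymerase II at the start site of a gene. It holds the TATA-box binding protein, encoded by *Tbp*, and TBP-associated factors, encoded by the Taf genes. *Taf4* pairs with *Taf12* through their histone folds inside the complex, and the paralog *Taf4b* can take the place of *Taf4*. Several members (*Taf9*, *Taf10* and *Taf12*) also belong to the SAGA coactivator complex.

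The promoters of *Taf4*, the targeted gene, and of *Taf12* and *Taf13*, the TFIID genes with the largest differences between the libraries among those with at least 200 UMIs, are shown from 250 bases before to 50 bases after the start in RefSeq GRCm38.p6. They lie at chr2:179976597-179976896 on the minus strand for *Taf4*, at chr4:132274125-132274424 on the plus strand for *Taf12* and at chr3:108571449-108571748 on the plus strand for *Taf13*. Capitals mark TATAAA, searched on both strands, a form of the TATA box to which TBP binds.
Taf4: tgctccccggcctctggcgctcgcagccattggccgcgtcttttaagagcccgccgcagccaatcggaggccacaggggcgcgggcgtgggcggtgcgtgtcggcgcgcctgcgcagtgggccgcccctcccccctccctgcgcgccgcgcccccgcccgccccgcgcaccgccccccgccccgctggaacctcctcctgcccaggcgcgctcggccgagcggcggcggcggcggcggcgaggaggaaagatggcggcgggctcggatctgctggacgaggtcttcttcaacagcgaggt
Taf12: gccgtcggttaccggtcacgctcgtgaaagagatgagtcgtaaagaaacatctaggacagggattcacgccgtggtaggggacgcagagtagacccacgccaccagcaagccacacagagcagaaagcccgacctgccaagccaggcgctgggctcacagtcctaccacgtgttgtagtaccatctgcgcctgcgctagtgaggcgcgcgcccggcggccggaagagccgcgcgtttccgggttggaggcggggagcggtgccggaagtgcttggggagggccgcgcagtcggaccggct
Taf13: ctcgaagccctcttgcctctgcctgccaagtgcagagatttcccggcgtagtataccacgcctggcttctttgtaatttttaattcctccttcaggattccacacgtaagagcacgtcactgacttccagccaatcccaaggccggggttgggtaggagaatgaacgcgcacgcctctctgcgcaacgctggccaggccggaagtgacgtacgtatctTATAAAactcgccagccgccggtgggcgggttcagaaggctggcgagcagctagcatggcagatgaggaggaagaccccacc
The window of *Taf13* held the motif once, on the strand of the gene and beginning at -32 from the start, and the windows of *Taf4* and *Taf12* did not hold it. It stood in 4 of the 13 TFIID subunit promoters found in the table (*Taf5*, *Taf6*, *Taf11* and *Taf13*), and in 13.6% of all 32851 promoters of that length. GC content was 77.3% in the *Taf4* window, 65.3% in that of *Taf12* and 57.3% in that of *Taf13*, against a median of 52.7% over all promoters. A match in this window is a description of the letters.

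The control library held 39947009 UMIs in 2563 cells and the library labelled KO 24990128 UMIs in 1811 cells, with a median of 16749 and 2254 UMIs per cell. Cells under 2000 UMIs were 17.3% and 49.1% of the libraries, and 2 cell barcodes occurred in both. Markers of 15 genes of immune, stromal, endothelial, muscle and nerve cells summed to 0.197 and 0.194 UMIs per 10000, with 9 and 8 of them at 0, and without *Kit* to 0.0198 and 0.0400. Levels are given as UMIs per 10000 UMIs of all genes, summed over cells, with exact Poisson 95% intervals, and differences as log2 ratios of the library labelled KO over control with exact binomial intervals. All intervals cover counting error only and say nothing of the spread between cultures. One UMI stands for 1 captured molecule whatever the transcript length, but the efficiency of capture can differ between genes.

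*Taf4* transcripts (chromosome 2, 179912146 to 179976646, minus strand) were not fewer in the library labelled KO. The control held 278 *Taf4* UMIs, or 0.0696 per 10000 (0.0617 to 0.0783), and the library labelled KO held 236, or 0.0944 per 10000 (0.0828 to 0.107). The log2 ratio was 0.44 (0.18 to 0.70), which lay 0.29 above the median of 0.16 over the 10002 genes with at least 200 UMIs. It was above 0 under all 9 other settings tried, from 0.24 to 0.54, but no intervals were given for these values. On totals without mitochondrial and ribosomal genes it was 0.26, and with size factors or TMM 0.24. Whether counting error alone could bring these lower values to 0 was not tested. In cells with at least 20000 UMIs, a setting chosen after seeing the data, it was 0.24 and only 0.10 above the median of all genes. A transcript from a recombined *Taf4* allele can still end in the same 3′ sequence and be counted, and the deleted exons are not named in the sources used here, so this level does not check the label.

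*Taf4* was rare in single cells. At least 1 *Taf4* UMI was seen in 253 control cells (9.87%, 8.74 to 11.1, Clopper-Pearson) and 203 cells of the library labelled KO (11.2%, 9.79 to 12.8), and no cell held more than 4. With each cell thinned to 2000 UMIs, which left out 444 and 890 shallower cells, the shares were 1.46% of 2119 and 2.17% of 921 cells, a difference of 0.71 percentage points (-0.33 to 1.96). At 5000 UMIs, with 575 and 1053 cells left out, they were 3.32% and 5.94%, a difference of 2.62 points (0.81 to 4.68). At 500 UMIs, with no cell left out, the difference was -0.09 points (-0.60 to 0.46), so that its direction was not detectable at that depth. No cell class is known to lack *Taf4*, and the share that free RNA gives was therefore not measured for it.

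Over all cells, the paralog *Taf4b* stood in a like proportion to *Taf4* in both libraries. Its levels were 0.0295 per 10000 (118 UMIs) in the control and 0.0392 (98 UMIs) in the library labelled KO, a log2 ratio of 0.41 (0.01 to 0.81). *Taf4* made up 70.2% (65.4 to 74.7) of the UMIs of the pair in the control and 70.7% (65.5 to 75.5) in the library labelled KO. These 2 intervals overlapped almost fully. Within stem-like cells, described below, the log2 ratio was 0.38 (-0.0043 to 0.76) for *Taf4* and 0.89 (0.42 to 1.35) for *Taf4b*. The UMIs there were 188 and 85 for *Taf4*, and 103 and 66 for *Taf4b*. The share of the pair within a class was not tested. The *Taf4b* ratio over all cells was 0.21 with size factors or TMM and 0.91 with cells thinned to 2000 UMIs, without intervals.

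*Taf12*, the histone-fold partner of *Taf4*, showed the largest difference among the members with at least 200 UMIs. It had 1015 UMIs (0.254 per 10000, 0.239 to 0.270) in the control and 979 (0.392 per 10000, 0.368 to 0.417) in the library labelled KO. The ratio was 1.54-fold, a log2 ratio of 0.62 (0.50 to 0.75), and the 2 levels did not overlap. On totals without mitochondrial and ribosomal genes, or with size factors or TMM, it was 0.43 to 0.44 and thus under 1.5-fold, still above 0.

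*Tbp*, the TATA-box binding protein, had 227 UMIs (0.0568 per 10000) and 173 UMIs (0.0692 per 10000), a log2 ratio of 0.28 (-0.0090 to 0.58) that did not leave 0 and turned to -0.15 with cells thinned to 2000 UMIs. *Taf1*, the largest subunit and a scaffold of the complex that touches the promoter, had 1382 UMIs (0.346 per 10000) and 797 (0.319 per 10000), a log2 ratio of -0.12 (-0.24 to 0.0094). Its sign turned to 0.17 with cells thinned to 2000 UMIs and to 0.25 with every cell weighed the same.

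The core subunits, present in more than 1 copy in the complex, went in different directions. *Taf5*, a WD40-repeat subunit, was at 0.151 per 10000 (602 UMIs) in the control and 0.123 (308 UMIs) in the library labelled KO, a log2 ratio of -0.29 (-0.49 to -0.09). It became 0.37 when every cell weighed the same. *Taf6*, a histone-fold subunit, was at 0.153 (610 UMIs) and 0.186 (464 UMIs) per 10000, a log2 ratio of 0.28 (0.10 to 0.46) that ranged from 0.05 in cells with at least 20000 UMIs to 0.67, past 1.5-fold, with every cell weighed the same, and lay between 0.08 and 0.10 under the other scalings. *Taf9*, its histone-fold partner, had only 21 and 19 UMIs (0.0053 and 0.0076 per 10000), a log2 ratio of 0.53 (-0.44 to 1.5). *Taf9* shares its locus and strand with *Ak6*, which had 1908 and 1121 UMIs, so that counting can have split the reads of the pair, and the level of *Taf9* is uncertain.

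*Taf8* and *Taf10* pair through their histone folds and join the core to the rest of TFIID. *Taf8* had 136 UMIs (0.0340 per 10000) and 68 UMIs (0.0272 per 10000), a log2 ratio of -0.32 (-0.77 to 0.11). The ratio of *Taf8* turned to 0.72, past 1.5-fold, with every cell weighed the same, and was -0.64 in cells with at least 20000 UMIs. *Taf10* had by far the most UMIs of the 10 genes, 9695 (2.43 per 10000, 2.38 to 2.48) and 6406 (2.56 per 10000, 2.50 to 2.63). Its log2 ratio of 0.08 (0.03 to 0.12) was below the median of all genes and turned to -0.10 on totals without mitochondrial and ribosomal genes and to -0.12 with size factors or TMM. *Taf10* overlaps *Ilk*, on the opposite strand, with 924 and 628 UMIs. *Taf6* overlaps *Ap4m1*, with 571 and 274 UMIs, and *Taf5* overlaps *Atp5md*, both also on the opposite strand.

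**Figure D1:**
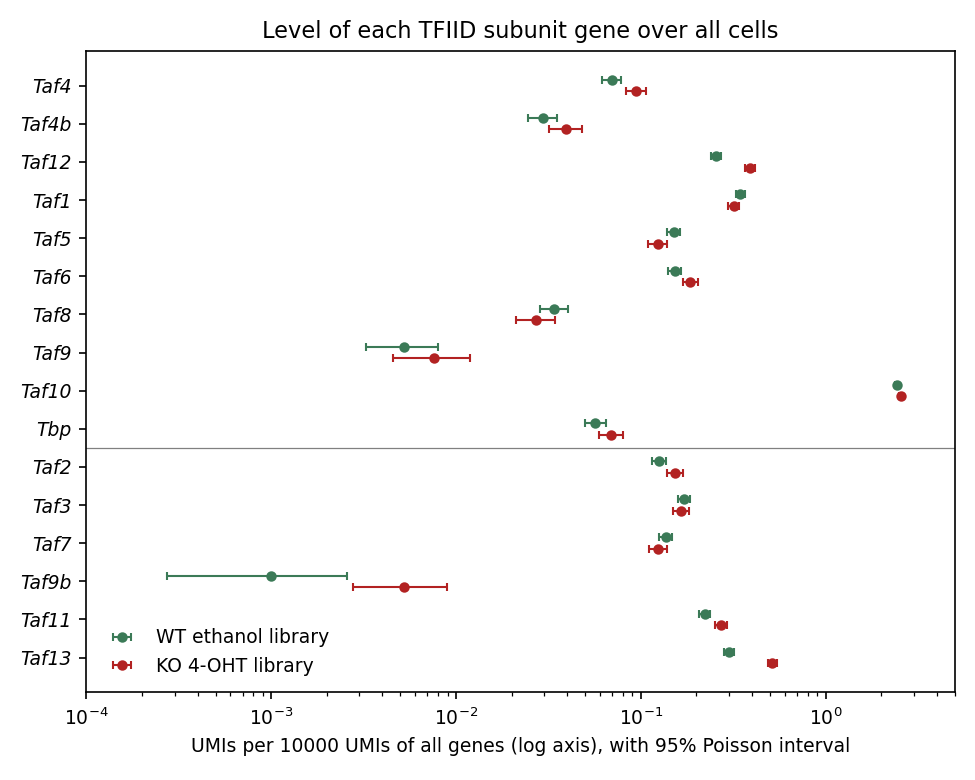
Level of each of the 10 genes (above the line) and 6 other TFIID subunit genes (below it) over all cells of a library, in UMIs per 10000 on a log axis, with 95% Poisson intervals. The levels run from *Taf9* and *Taf9b*, below 0.01, to *Taf10*, above 2.4, and of the 10 genes *Taf4*, *Taf6*, *Taf10* and *Taf12* (higher in the library labelled KO) and *Taf5* (lower in it) have intervals that do not overlap.

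Of the 10 genes, 9 had at least 200 UMIs over both libraries (all but *Taf9*). Among them 6 were higher and 3 lower in the library labelled KO, with a median log2 ratio of 0.28 against 0.16 over all genes. Past 1.5-fold, 1 of the 9 was higher (*Taf12*) and 0 lower, whereas 16.0% of the 10002 genes were past 1.5-fold higher and 7.47% past it lower. The count of members past the fold is thus no larger than the background. With TMM factors the median of all genes moved from 0.16 to -0.04, 9.29% of genes were past the fold higher and 12.2% lower, and no member was past it.

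Of the other TFIID subunits, *Taf13*, which pairs with *Taf11* by a histone fold, had the largest difference among those with at least 200 UMIs. It had 1200 UMIs (0.300 per 10000, 0.284 to 0.318) in the control and 1286 (0.515 per 10000, 0.487 to 0.544) in the library labelled KO, a log2 ratio of 0.78 (0.66 to 0.89), or 1.71-fold. The log2 ratio of *Taf11* itself was 0.30 (0.15 to 0.44), from 886 and 681 UMIs. *Taf11* overlaps *Anks1*, on the opposite strand, with 214 and 156 UMIs. *Taf2*, a subunit that contacts the initiator element, had 504 and 385 UMIs and a log2 ratio of 0.29 (0.09 to 0.48). *Taf3*, whose PHD finger reads trimethylated lysine 4 of histone H3, had 682 and 412 UMIs and a log2 ratio of -0.05 (-0.23 to 0.13). *Taf7*, a partner of *Taf1*, had 544 and 311 UMIs and a log2 ratio of -0.13 (-0.34 to 0.07). Its locus overlaps the protein-coding genes *Gm37013*, *Gm38666* and *Gm38667*. *Taf9b*, the paralog of *Taf9*, had 4 and 13 UMIs (log2 ratio 2.38, 0.68 to 4.45), below the minimum. *Taf7l* was not listed in either table.

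**Figure D2:**
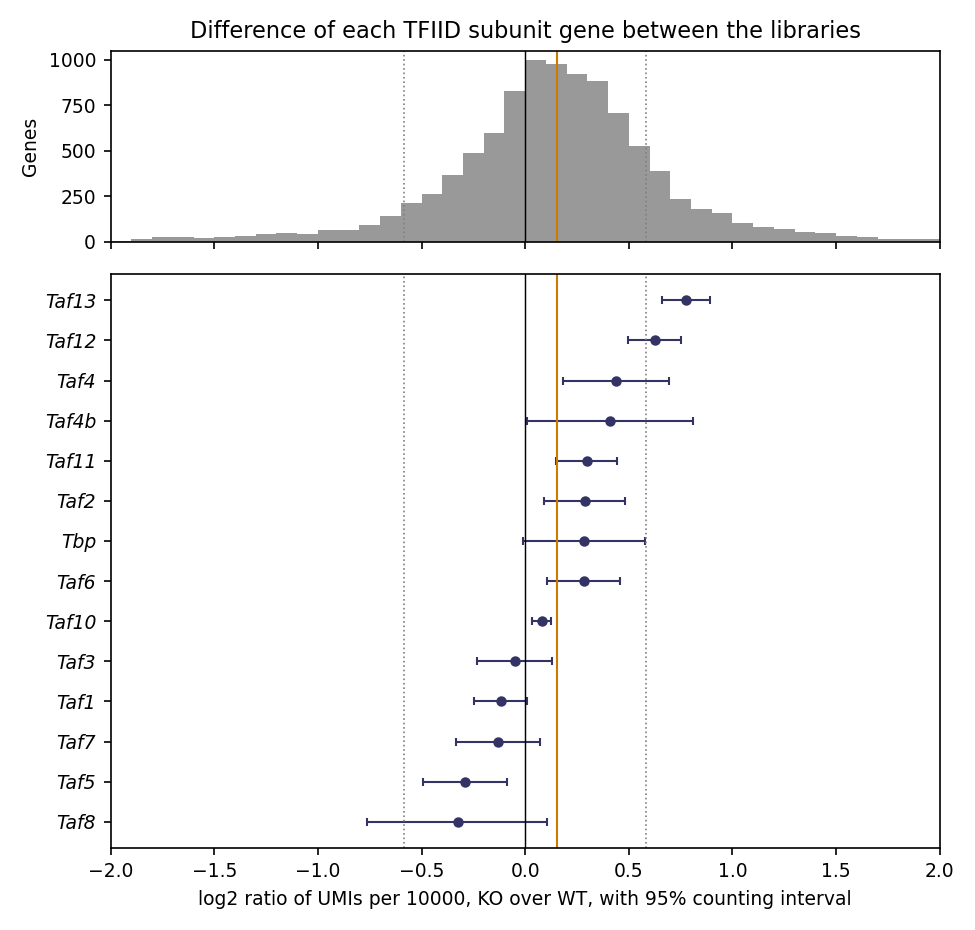
Log2 ratio of UMIs per 10000 in the library labelled KO over control for the 14 TFIID subunit genes with at least 200 UMIs (lower panel, points with 95% counting intervals) under the histogram of all 10002 such genes (upper panel). The orange line is the median of all genes (0.16), dotted lines mark 1.5-fold, and *Taf13* (0.78) and *Taf12* (0.62) lie beyond the upper one.

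The make-up of TFIID transcripts, summed over all cells, differed between the libraries. The 16 listed subunit genes summed in the control to 4.48 UMIs per 10000 (4.42 to 4.55), and to 5.06 (4.97 to 5.15) in the library labelled KO, while *Taf10* alone gave 54.1% and 50.7% of these UMIs. Of the UMIs of the other 15 genes, *Taf12* in the control took 12.4% (11.7 to 13.1), against 15.7% (14.8 to 16.6) for the library labelled KO. The share of *Taf13* was 14.6% (13.9 to 15.4) and 20.6% (19.6 to 21.7), and that of *Taf1* was 16.8% (16.0 to 17.7) and 12.8% (12.0 to 13.6). *Taf5* took 7.33% (6.78 to 7.92) and 4.94% (4.42 to 5.51). The share of *Taf4* itself was 3.39% (3.01 to 3.80) and 3.79% (3.33 to 4.29), with overlapping intervals. These shares do not depend on how the libraries are scaled, but they do depend on which cells are summed. With every cell weighed the same, the log2 ratios of *Taf1* and *Taf5* were 0.25 and 0.37. Cell classes and depth differed between the libraries, and their part in the shares was not tested.

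Genes of the surrounding machinery were compared on the same scale. Of 18 SAGA subunits outside TFIID, 10 were higher and 8 lower, with a median log2 ratio of 0.06. Past 1.5-fold were *Supt7l* (0.76, 0.43 to 1.08), a histone-fold subunit of the SAGA core, and in the other direction *Supt3* (-0.86, -1.12 to -0.61), which resembles *Taf13* and *Taf11* fused. The next in order were *Tada2b* at 0.41 and *Eny2* at -0.47. Of the SAGA genes, none beside these 2 was past the fold.

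Of 17 other general transcription factor genes, 12 were higher and 5 lower, with a median of 0.07. *Gtf2a1*, the large TFIIA subunit that steadies TBP on DNA, had 624 and 821 UMIs (0.156 and 0.329 per 10000) and a log2 ratio of 1.07 (0.92 to 1.23), the only one past the fold. *Ercc3* (0.54) followed it, and *Gtf2h2* (-0.38) and *Ccnh* (-0.15) were the lowest. Of 11 listed partners and relatives of TBP outside TFIID, 6 were higher and 5 lower with a median of 0.18. *Taf1d* of the polymerase I factor SL1 was past the fold lower, at -0.66 (-0.73 to -0.58), while *Tbpl1* (0.45) and *Btaf1* (0.43) were the highest and *Taf1a* (-0.26) came next to *Taf1d*.

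Of 13 RNA polymerase II subunit genes, 5 were higher and 8 lower, with a median of -0.04. *Polr2a*, the catalytic subunit, had 1767 and 2356 UMIs (0.442 and 0.943 per 10000), a log2 ratio of 1.09 (1.00 to 1.18), and *Polr2l* had 355 and 511 UMIs and a ratio of 1.20 (1.00 to 1.4). None of the remaining 11 was past the fold, and *Polr2h* (-0.27) and *Polr2m* (-0.18) were the lowest. The median of the TFIID genes, 0.28 over 14 genes, was thus the highest of these groups, with no test made of the difference.

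**Figure D3:**
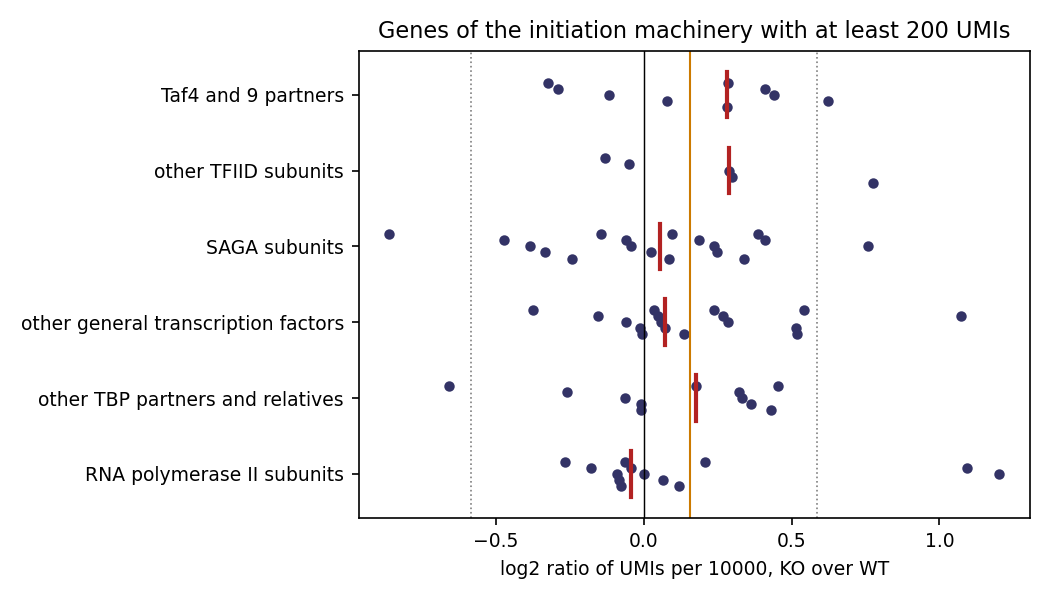
Log2 ratio in the library labelled KO over control for each gene with at least 200 UMIs of 6 gene groups, one point per gene with a red bar at the group median. The orange line is the median of all genes (0.16), dotted lines mark 1.5-fold, and the medians run from -0.04 for RNA polymerase II subunits to 0.29 for the other TFIID subunits.

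Cells were sorted into classes by clustering each library alone and naming clusters from markers, with no TFIID gene among the genes used to cluster. Stem-like cells were 1298 (50.6%) in the control and 427 (23.6%) in the library labelled KO, and enterocyte-like cells 297 and 168. Paneth/goblet-like cells were 190 and 184, enteroendocrine-like cells 261 and 202, tuft-like cells 0 and 15, and 517 and 815 cells stayed unnamed. The classes did not hold the same clusters. In the stem-like class 5 control clusters of 350, 305, 255, 249 and 139 cells stood against clusters of 213, 181 and 33 cells, and the cluster of 181, led by *Ccnd1*, *Ly6d*, *Olfm4* and *Lgr5*, gave most of the UMIs. The control clusters of 305, 249 and 139 cells and the clusters of 213 and 33 cells had no stem marker among their 10 leading genes, so these names rest on marker levels. Because the names were rebuilt, they can differ from those of the study.

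*Taf4* was highest in enteroendocrine-like cells, the hormone-secreting cells of the gut, in both libraries. In the control its levels were 0.101 per 10000 in enteroendocrine-like, 0.0716 in stem-like, 0.0646 in enterocyte-like and 0.0348 in Paneth/goblet-like cells. Neighbours in this order overlapped, whereas the highest and the lowest did not. In the library labelled KO the levels were 0.184 in enteroendocrine-like, 0.0935 in tuft-like (2 UMIs), 0.0934 in stem-like, 0.0920 in Paneth/goblet-like and 0.0636 in enterocyte-like cells. Neighbours again overlapped, the 2 tuft-like UMIs among them, but the enteroendocrine-like level was apart from the other 3 classes that hold over 100 cells. Enteroendocrine-like cells were 2.89-fold (1.77 to 4.76) over enterocyte-like cells, against 1.56-fold (0.90 to 2.65) in the control.

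*Malat1*, a nuclear RNA used as a sign of cell quality, was also highest in enteroendocrine-like cells among these 4 classes. It was at 97.2 per 10000 there in the control, against 34.3 in stem-like, 67.6 in enterocyte-like and 45.1 in Paneth/goblet-like cells, and at 168 in the library labelled KO, against 49.7, 70.4 and 56.1. Its part in the class levels of *Taf4* and *Taf1*, and in the differences between the libraries, was not tested.

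Between the libraries, the ratio of *Taf4* was largest in the secretory classes, with intervals that overlapped those of the other classes. In Paneth/goblet-like cells it had 11 UMIs in the control and 28 in the library labelled KO, a log2 ratio of 1.4 (0.35 to 2.56). In enteroendocrine-like cells it had 26 and 46 UMIs and a ratio of 0.87 (0.14 to 1.62). Over 11 other clusterings and cell choices these ratios lay between 1.14 and 1.44 and between 0.63 and 0.87. Most of these UMIs came from single clusters, 25 of the 26 from 204 control cells, 44 of the 46 from 129 cells, and 25 of the 28 from 86 cells led by *Zg16* and *Muc2*. The 11 UMIs of the control came from 1 cluster of 190 cells led by *Defa24* and *Spink4*. The part of these unlike clusters in the Paneth/goblet-like ratio was not tested.

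In stem-like cells *Taf4* had 188 and 85 UMIs (0.0716 and 0.0934 per 10000), a log2 ratio of 0.38 (-0.0043 to 0.76), which turned to -0.49 when both libraries were clustered together. In enterocyte-like cells 36 and 29 UMIs gave a ratio of -0.02 (-0.78 to 0.72), an interval that leaves room for a difference in either direction. Over all genes with at least 200 UMIs in a class, the median log2 ratio was 0.20 for stem-like, 0.03 for enterocyte-like, 0.04 for Paneth/goblet-like and 0.24 for enteroendocrine-like cells. The differences of *Taf4* between classes were not tested against each other. Class ratios of the other genes, given below, were not tried under other clusterings.

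*Taf4b* was highest in stem-like cells in both libraries, with few UMIs elsewhere. In the control 103 of its 118 UMIs fell in stem-like cells (0.0392 per 10000), 5 in Paneth/goblet-like, 3 in enterocyte-like and 2 in enteroendocrine-like cells. In the library labelled KO 66 of 98 did (0.0725 per 10000), with 13, 2 and 4 in the other classes. Stem-like cells held 26246969 of the 39947009 UMIs of all genes in the control and 9101659 of 24990128 in the library labelled KO. The Paneth/goblet-like levels of *Taf4b*, 0.0158 (0.0051 to 0.0369) and 0.0427 (0.0227 to 0.0730), overlapped the stem-like intervals of 0.0320 to 0.0476 and 0.0561 to 0.0923. The stem-like level was 7.29-fold (2.43 to 35.9) over the enterocyte-like one in the control and 16.5-fold (4.40 to 139) in the library labelled KO. Within stem-like cells *Taf4b* had a log2 ratio of 0.89 (0.42 to 1.35), and the control stem-like cluster led by *Mcm4*, *Ung* and *Olfm4* had the highest *Taf4b* of the control, 0.0645 per 10000. Both folds rest on 3 and 2 enterocyte-like UMIs.

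*Taf12* was higher in the library labelled KO in every class compared. Stem-like cells held 0.281 UMIs per 10000 in the control and 0.490 in the other library, enterocyte-like cells 0.188 and 0.364, Paneth/goblet-like cells 0.224 and 0.355, and enteroendocrine-like cells 0.190 and 0.287. In this order of classes the log2 ratios were 0.80 (0.63 to 0.97), 0.95 (0.59 to 1.32), 0.66 (0.22 to 1.11) and 0.60 (0.06 to 1.15), and unnamed cells had 0.55 (0.10 to 1.02). *Taf13* was also higher in the 4 named classes, by 1.03 (0.87 to 1.19), 0.68 (0.29 to 1.06), 0.74 (0.36 to 1.13) and 0.92 (0.54 to 1.31) in the same order, but not in unnamed cells, at 0.01 (-0.32 to 0.35). All of these ratios but the last lay above the median of their class.

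*Taf1*, like *Taf4*, was highest in enteroendocrine-like and next highest in stem-like cells of the control, whereas its lowest level lay in enterocyte-like cells. In the control it was at 0.534 per 10000 in enteroendocrine-like, 0.379 in stem-like, 0.262 in Paneth/goblet-like and 0.156 in enterocyte-like cells, and each neighbouring pair was apart. In the library labelled KO the levels were 0.714, 0.331, 0.273 and 0.215, with the enteroendocrine-like level apart from the other 3. Enteroendocrine-like cells thus exceeded enterocyte-like cells 3.42-fold (2.60 to 4.53) and 3.32-fold (2.58 to 4.29). Within the control stem-like clusters *Taf1* ran from 0.238 to 0.542 per 10000, highest in the cluster of 305 cells led by *Hist1h1b* and *Pclaf*. *Mki67*, a marker of cycling cells, was at 2.44 in that cluster and at 3.35 in the cluster of 249 cells, where *Taf1* was at 0.379.

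The sign of the *Taf1* difference depended on the class. It was lower in the library labelled KO in stem-like cells (994 and 301 UMIs, log2 ratio -0.20, -0.39 to -0.0081) and in unnamed cells (-0.54, -0.95 to -0.12). The unnamed cells were unlike in the libraries. In the control 54 of their 80 *Taf1* UMIs came from 89 cells led by *Rgs13*, *Ltc4s* and *Dll1*. In the library labelled KO 90 of 129 came from 148 cells with 2 enterocyte markers, too few for a name. *Taf1* was higher in enterocyte-like cells (87 and 98 UMIs, 0.46, 0.03 to 0.90) and enteroendocrine-like cells (138 and 179 UMIs, 0.42, 0.09 to 0.75), and 0.06 (-0.40 to 0.51) in Paneth/goblet-like cells. *Taf5* had no class in which its interval left 0, from -0.48 in Paneth/goblet-like to 0.34 in enteroendocrine-like cells.

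*Taf6* and *Tbp* were higher in the library labelled KO in stem-like and enteroendocrine-like cells, with intervals above 0. These class ratios were not tried under other clusterings. *Taf6* went from 0.170 to 0.241 per 10000 in stem-like cells (log2 ratio 0.50, 0.26 to 0.74) and from 0.124 to 0.275 in enteroendocrine-like cells (1.15, 0.53 to 1.80). Enterocyte-like cells held 0.0772 and 0.0746 per 10000. *Tbp* went from 0.0575 to 0.0868 in stem-like cells (0.59, 0.18 to 1.00) and from 0.0658 to 0.140 in enteroendocrine-like cells (1.09, 0.21 to 2.01), and in enterocyte-like cells its ratio was -0.39 (-1.42 to 0.60).

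*Taf10*, with the most UMIs, gave the narrowest intervals. Its levels were 2.54 and 3.16 per 10000 in stem-like cells (log2 ratio 0.32, 0.26 to 0.38), 2.50 and 2.20 in enterocyte-like cells (-0.18, -0.30 to -0.06), 1.80 and 1.77 in Paneth/goblet-like cells (-0.02, -0.19 to 0.15) and 1.95 and 2.41 in enteroendocrine-like cells (0.31, 0.13 to 0.48). Stem-like cells had the highest level in both libraries and Paneth/goblet-like cells the lowest, 1.41-fold (1.29 to 1.54) and 1.78-fold (1.63 to 1.96) apart. *Taf8* was highest in enteroendocrine-like cells in both libraries, 3.73-fold (1.69 to 8.67) and 5.15-fold (1.94 to 16.0) over enterocyte-like cells. The folds rest on 19 and 11 UMIs in the control and on 17 and 6 in the library labelled KO. The enteroendocrine-like interval of *Taf8* overlapped that of the next class, Paneth/goblet-like in the control and stem-like in the library labelled KO. In Paneth/goblet-like cells its UMIs numbered 14 and 4, with a log2 ratio of -1.75 (-3.81 to -0.08). *Taf9* had at most 16 UMIs in any class, and no class difference was detectable at this depth.

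**Figure D4:**
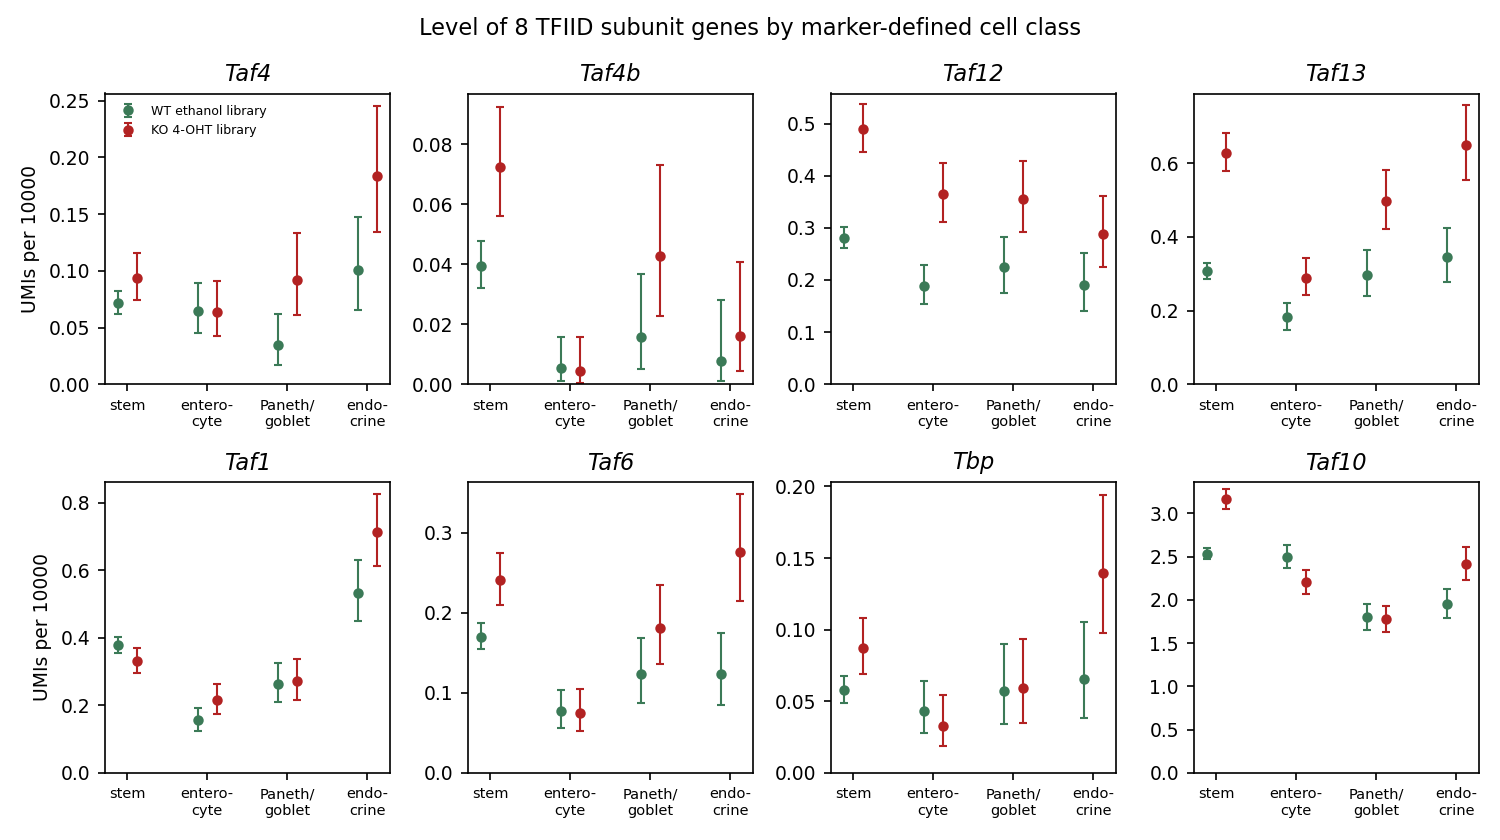
Level of 8 TFIID subunit genes in UMIs per 10000 (vertical axes from 0) in stem-like, enterocyte-like, Paneth/goblet-like and enteroendocrine-like cells of the control (green) and of the library labelled KO (red), with 95% Poisson intervals. *Taf4* and *Taf1* were highest in enteroendocrine-like cells, *Taf4b* in stem-like cells, and *Taf12* and *Taf13* were higher in the library labelled KO in all 4 classes.

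Because the libraries differ in depth, levels were also compared among cells of like depth. *Taf4* was at 0.0714 and 0.0928 per 10000 in cells of 20000 to 40000 UMIs (915 and 385 cells), a log2 ratio of 0.38 (0.02 to 0.73). Enteroendocrine-like cells, in which *Taf4* was highest, were 1.86% and 13.8% of these cells and gave 6 of 166 and 24 of 112 *Taf4* UMIs. Without them, a setting chosen after seeing the data, the ratio was 0.23 (-0.16 to 0.61), which did not leave 0. In cells of 10000 to 20000 UMIs (910 and 100 cells) it was at 0.0617 and 0.180, a ratio of 1.54 (0.88 to 2.17). Here enteroendocrine-like cells made up 12.6% of the control and 54.0% of the cells labelled KO and gave 14 of 89 and 18 of 28 *Taf4* UMIs, and without them the ratio was 1.30 (0.18 to 2.26). In cells of 2000 to 10000 UMIs the ratio was 0.33 (-0.79 to 1.42), and below 2000 UMIs it was 0.72 (-0.86 to 2.56) on 5 and 13 UMIs. Above 40000 UMIs the control had 3 cells and no *Taf4* UMI, and the library labelled KO had 203 cells and 69 UMIs (0.0721 per 10000).

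*Taf12* was higher in 3 of these 4 bins of depth with intervals above 0. Its log2 ratios were 1.10 (0.09 to 2.22) below 2000 UMIs, 1.24 (0.54 to 1.96) from 2000 to 10000, 0.24 (-0.24 to 0.69) from 10000 to 20000 and 0.62 (0.45 to 0.79) from 20000 to 40000. *Taf5* was lower in the deepest of these bins, at 0.174 and 0.126 per 10000 (log2 ratio -0.47, -0.75 to -0.20), and below 2000 UMIs higher on 2 control UMIs (2.15, 0.03 to 5.33).

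**Figure D5:**
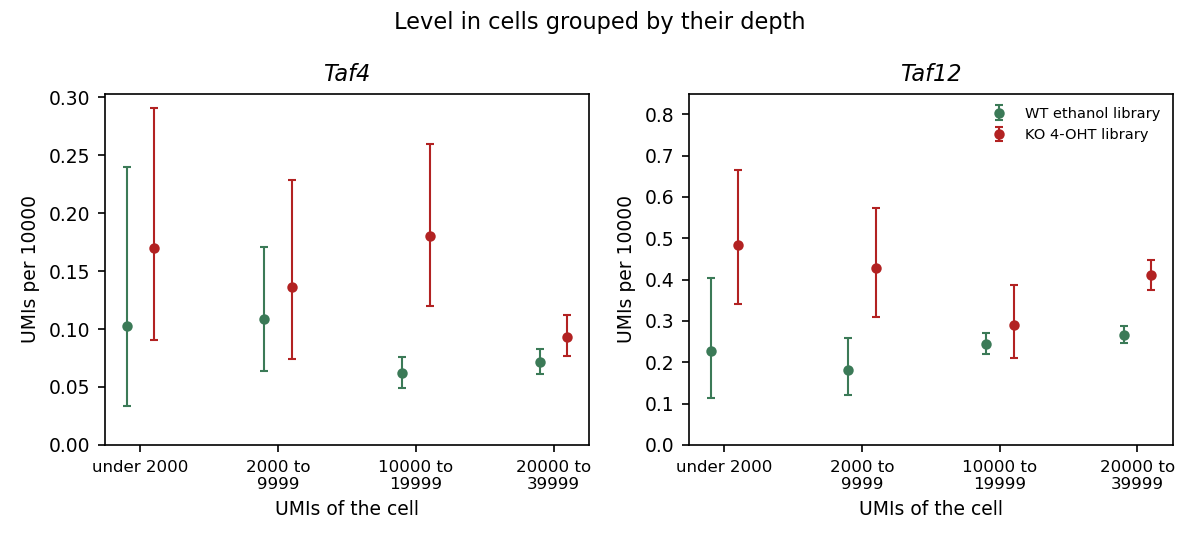
Level of *Taf4* (left) and *Taf12* (right) in UMIs per 10000, in cells grouped by their own number of UMIs, for the control (green) and the library labelled KO (red) with 95% Poisson intervals. *Taf4* stands furthest apart between 10000 and 20000 UMIs (0.0617 and 0.180), and *Taf12* has separate intervals between 2000 and 10000 UMIs (0.181 and 0.427) and between 20000 and 40000 UMIs (0.267 and 0.410).

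The likeness of other genes to *Taf4* was measured over 11 sums of UMIs by class and library, with Pearson's r of log2 levels for 7917 genes with at least 500 UMIs. The genes most like *Taf4* were *Haghl* (r = 0.97), *Man2b1* (0.93) and *Akirin1* (0.92). Among the TFIID genes that entered, *Taf1* (0.69), *Taf13* (0.65), *Taf3* (0.62) and *Taf6* (0.60) were the most like it, while *Taf12* (0.24), *Taf10* (0.24) and *Taf5* (0.06) were the least. The sums share libraries and differ in depth, the *Taf4* counts are sparse, and these values are a description only.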

How the data were processed

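The deposited tables hold raw UMI counts per gene and cell. Per the labels, the authors sorted live cells and captured them with 10X 3′ chemistry, and their processing notes name bcl2fastq 2.17.1.14, Cell Ranger 3.1, Seurat 3.1.4 and the mm10 genome. The authors filtered cells before deposit (at most 5997 genes and 15.0% mitochondrial UMIs here). From these counts, UMIs were summed per library, class or bin of depth, with exact intervals of 95% (Python 3.11.15, numpy 2.4.6, scipy 1.17.1). Each library was clustered with Seurat 5.3.0 in R 4.3.3 (2000 variable genes, 20 principal components, resolution 0.9, UMI count and mitochondrial percent regressed out). A cluster took a name from at least 3 markers at 1.5 times the mean level of the libraries, and stayed unnamed where its 10 leading genes went against it. Scrublet in scanpy 1.11.5 called 10 and 0 doublets, too few to have worked, and they were kept. TMM factors came from edgeR 4.0.16, used for scaling alone. Only the coverage of the intervals was tested on simulated data, drawn as Poisson counts. The clustering and the naming of classes were not tested in this way. The members, lists, markers and rules were chosen with earlier results of these data known. Named genes are the members, the other TFIID subunits, the 2 highest and 2 lowest genes of every other list and the 3 most like *Taf4*. Leading genes of clusters, *Mki67* and *Malat1* were named beside results, and protein-coding genes such as *Ilk* and *Ak6* as overlapping genes. Coordinates are from RefSeq GRCm38.p6.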

Additional observations from a re-analysis of the deposited data

Results flagged for a closer look

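For 2 genes the difference between the libraries had opposite signs in different cell classes, each with an interval that left 0, and the difference between the classes was not tested. The log2 ratio of *Taf1* was 0.46 (0.03 to 0.90) in enterocyte-like and 0.42 (0.09 to 0.75) in enteroendocrine-like cells, but -0.20 (-0.39 to -0.0081) in stem-like and -0.54 (-0.95 to -0.12) in unnamed cells. That of *Taf10* was 0.32 (0.26 to 0.38) in stem-like and 0.31 (0.13 to 0.48) in enteroendocrine-like cells, but -0.18 (-0.30 to -0.06) in enterocyte-like cells. The median over all genes was 0.20, 0.24 and 0.03 in these 3 classes. The classes were made of different clusters in the 2 libraries, as described for the stem-like and the unnamed cells, and the part of that in these signs was not tested.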

How the results depend on the processing

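No paired analysis was possible because each condition has 1 library. The *Taf4* log2 ratio over all cells stayed above 0 in 9 of 9 alternatives (0.24 to 0.54), the lowest in cells with at least 20000 UMIs, which was added after seeing the data. No intervals were given for these alternatives. The count of members past 1.5-fold higher, 1 as reported, was 0 with totals without mitochondrial and ribosomal genes, with size factors, with TMM factors and in cells with at least 20000 UMIs, 2 with cells thinned to 2000 UMIs and 5 with every cell weighed the same. It was 4 under a looser fold limit and 0 under a limit of 2-fold. The 5 and the 4 both include *Taf9*, which is below the minimum of 200 UMIs and was left out of the count as reported. The log2 ratio of *Taf9* was 1.61 with every cell weighed the same and 0.53 in the main setting. The count past 1.5-fold lower was 1 with cells thinned to 2000 UMIs, in cells with at least 20000 UMIs and under the looser limit. The shares of all genes past 1.5-fold also moved. They were 20.9% higher and 8.13% lower with cells thinned to 2000 UMIs, and 21.0% and 5.12% with every cell weighed the same. In cells with at least 20000 UMIs they were 17.5% and 9.80%. On totals without mitochondrial and ribosomal genes they were 9.66% and 11.8%, and with size factors 9.21% and 12.3%. The median of the members was 0.54 with every cell weighed the same, and from 0.05 upwards otherwise. *Taf5* was reversed to 0.37 with every cell weighed the same, and *Taf10* to -0.10, -0.12 and -0.12 with the totals, size factors and TMM factors just named. Values whose intervals held 0 also changed sign, *Taf8* to 0.72 and *Taf1* to 0.25 with every cell weighed the same, and *Tbp* to -0.15 and *Taf1* to 0.17 with cells thinned to 2000 UMIs. *Taf4* in stem-like cells was -0.49 with both libraries clustered together, and its ratios in the other classes stayed within their intervals in 11 alternatives each. The class ratios of the other genes were not tried under these alternatives. The share of cells with a *Taf4* UMI differed by 2.62 points at 5000 UMIs. The causes were not tested. *Taf9* had no UMI left in cells thinned to 2000 UMIs and gave no value. Counts under about 30 UMIs per class limit what can be seen, for *Taf4* in Paneth/goblet-like cells of both libraries, enteroendocrine-like cells of the control and enterocyte-like cells of the library labelled KO, for most values of *Taf4b*, *Taf8* and *Tbp* outside stem-like cells, and for *Taf9* in every class.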
